A study of Mus musculus with 6 samples.

Results

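Nonsense-mediated decay (NMD) is the pathway that destroys mRNAs on which a ribosome stops too early, and it also sets the level of many normal mRNAs. Upf1, an RNA helicase, is its central factor. Upf2 and Upf3a or Upf3b connect Upf1 to the exon junction complex that splicing leaves on the mRNA, the kinase Smg1 with its partners Smg8 and Smg9 phosphorylates Upf1, and Smg5 and Smg6 act on phosphorylated Upf1, Smg6 as the endonuclease that cuts the target. In embryonic stem cells NMD factors are needed for survival or for proper differentiation. The 9 genes described here are Upf1, Upf2, Upf3a, Upf3b, Smg1, Smg8, Smg9, Smg5 and Smg6, which were chosen by name, with earlier results of these data known, out of 12134 genes with introns in the splicing tables.

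The cells were E14 mouse embryonic stem cells (129/Ola background) grown in serum with leukaemia inhibitory factor. At 24 h after seeding they were transfected by lipofection with either a control siRNA or an siRNA against Son, and RNA was extracted 24 h later. Son is a nuclear speckle protein that splicing of many introns with weak splice sites depends on. Total RNA depleted of rRNA was sequenced in 2 control and 2 Son siRNA libraries, and Nanopore cDNA reads came from 1 library of each kind. The labels do not say that the replicates came from separate cultures, so p-values measure the spread between these samples, which may be technical.

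Splicing of an intron was read at its 2 junctions, where a split read joins the exons and an unsplit read runs from exon into intron. Splicing efficiency is the share of split reads among both kinds, from 0 to 1. Changes are given as the log2 ratio of unsplit-to-split odds, Son siRNA over control (the log2 odds ratio), which is positive where splicing efficiency was lower after Son siRNA. The 9 genes held 155 introns in any library, and 148 entered the test, out of 63309 tested introns in all. Each listed junction had at least 10 reads. All 23 annotated introns of Upf1 were listed, but 5 of 8 of Upf3a. The libraries held 10556187 to 16012286 split reads at 5′ junctions, and overall splicing efficiency was 0.946 and 0.939 in the controls and 0.940 and 0.931 after Son siRNA. In CPM, the usual counts scaled to a common library size, spliced reads of Son itself were 283 and 314 in the controls and 93.5 and 102 after Son siRNA, a log2 fold change of -1.61 ± 0.087 (SE, n = 2 per group). Of 8 stem cell markers 7 were listed, and their summed spliced reads were 4180 to 4223 CPM in the controls and 3985 to 4229 CPM after Son siRNA. Among them Tfcp2l1 was called higher (log2 fold change 0.23, edgeR adjusted p = 0.0354), none was called lower, and Pou5f1 was called lower in splicing efficiency (log2 odds ratio 0.79, edgeR adjusted p = 0.0026). Of 7 fibroblast markers, 1 was listed in the splicing tables (Thy1, 1.16 to 2.17 CPM), and the collagens Col1a1, Col1a2 and Col3a1 had 0 long reads.

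Upf1 has 2 annotated coding forms that differ at the end of exon 7, and the introns on both sides of this exon were among those with the largest changes. The transcript models Upf1-201 and Upf1-202 have an exon 7 of 118 and 85 bases. The 33 extra bases lengthen a loop of the helicase domain. They are shown in capitals between the last 20 bases common to both forms and the first 20 bases of exon 8, from the GENCODE M21 transcripts (GRCm38), 5′ to 3′.
Upf1-201, long exon 7: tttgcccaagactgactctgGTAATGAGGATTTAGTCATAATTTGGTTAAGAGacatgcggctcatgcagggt
Upf1-202, short exon 7: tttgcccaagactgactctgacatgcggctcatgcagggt
The joined exons of 4 introns are shown as well: those with the largest difference downward in Upf1, Smg9 and Smg5, and Upf1 intron 1, whose groups overlapped. Each line holds the last 20 bases of the upstream exon and the first 20 of the downstream exon, all coding, with capitals for the last 3 bases before the intron and the first base after it.
Upf1 intron 1: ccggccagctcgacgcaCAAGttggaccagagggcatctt
Upf1 intron 6: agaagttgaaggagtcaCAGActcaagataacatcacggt
Smg9 intron 4: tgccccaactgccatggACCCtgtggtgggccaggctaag
Smg5 intron 13: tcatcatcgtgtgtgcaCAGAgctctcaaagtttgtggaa

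Summed over their introns, Upf1 and Smg9 were spliced less efficiently after Son siRNA, while the other 7 genes did not pass the test. Splicing efficiency of Upf1 was 0.931 and 0.922 in the controls and 0.890 and 0.868 after Son siRNA. That of Smg9 was 0.969 and 0.949 in the controls and 0.924 and 0.921 after Son siRNA. In both genes each knockdown library lay below each control library. The log2 odds ratio was 0.79 ± 0.21 (SE) for Upf1 with an adjusted p of 0.0045 and 1.01 ± 0.31 for Smg9 with an adjusted p of 0.0183 (edgeR quasi-likelihood test, Benjamini-Hochberg over 9370 genes). Of all genes tested, 6.98% were called lower and 0.128% higher, that is 654 and 12 genes, or 601 and 118 when split and unsplit reads each had a library size of their own. No NMD factor gene was called higher with edgeR, with 0 at an unadjusted p under 0.05 and 0 with DESeq2 or limma.

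Both calls were lost when some single libraries were left out, which leaves a lone library in a group. Over all genes, too, fewer were called lower without control replicate 1, control replicate 2 or knockdown replicate 2. The loss of a call in these fits is thus shared by other genes. With each library left out, the log2 odds ratio ranged from 0.64 to 0.94 for Upf1 and from 0.64 to 1.39 for Smg9. With limma 0 of all 9370 genes were called, so a call lost there is not particular to Upf1 or Smg9. Upf1 lost its call with limma (adjusted p = 0.289), and without control replicate 1 (0.397), control replicate 2 (0.0772) or knockdown replicate 2 (0.218), while its log2 odds ratio ranged from 0.63 to 0.94 and its adjusted p from 2.4e-14 to 0.397 over 11 alternatives. Smg9 lost its call with the 5′ junctions alone (adjusted p = 0.187), DESeq2 (0.0703), limma (0.268), without control replicate 1 (0.849, log2 odds ratio 0.64) and without knockdown replicate 2 (0.0850), and its adjusted p ranged from 0.00087 to 0.849 over 11 alternatives.

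Smg5, an adaptor that binds phosphorylated Upf1, had efficiencies of 0.943 and 0.942 in the controls and 0.923 and 0.920 after Son siRNA. Its groups did not overlap either, but its log2 odds ratio of 0.48 ± 0.22 did not pass the test (edgeR adjusted p = 0.264). Upf2, the scaffold between Upf1 and Upf3 proteins, stood the other way, at 0.862 and 0.847 in the controls and 0.889 and 0.862 after Son siRNA (log2 odds ratio -0.27 ± 0.24, edgeR adjusted p = 0.806). Its log2 odds ratio was -0.084 without knockdown replicate 1 and -0.44 without knockdown replicate 2. The higher control and the lower knockdown value of Upf2 round to the same number. Groups overlapped in the other 5 genes. Thus 3 genes had all knockdown values below the controls and 1 had them above, where 27.1% and 11.2% of all genes did.

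The remaining genes had log2 odds ratios near 0 or with wide errors. Smg1, the kinase, was at 0.928 and 0.922 in the controls and 0.925 and 0.922 after Son siRNA. Its partner Smg8 was at 0.951 and 0.919 against 0.957 and 0.917. Smg6, the endonuclease, was at 0.863 and 0.827 against 0.851 and 0.844. The knockdown replicates were furthest apart in Upf3a, which was at 0.934 and 0.900 in the controls and 0.944 and 0.868 after Son siRNA. Its paralog Upf3b was at 0.884 and 0.865 against 0.915 and 0.883. In all 9 genes the library labelled replicate 2 had the lower efficiency in both groups, as in the overall values above. With a library size of its own for each kind of read, the median over all genes was -0.08 in place of 0.09, the log2 odds ratio of Upf1 was 0.63, that of Smg9 0.85 and that of Smg5 0.32, while Upf3a and Smg1 changed sign, from 0.13 to -0.034 and from 0.03 to -0.13.

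**Figure D1:**
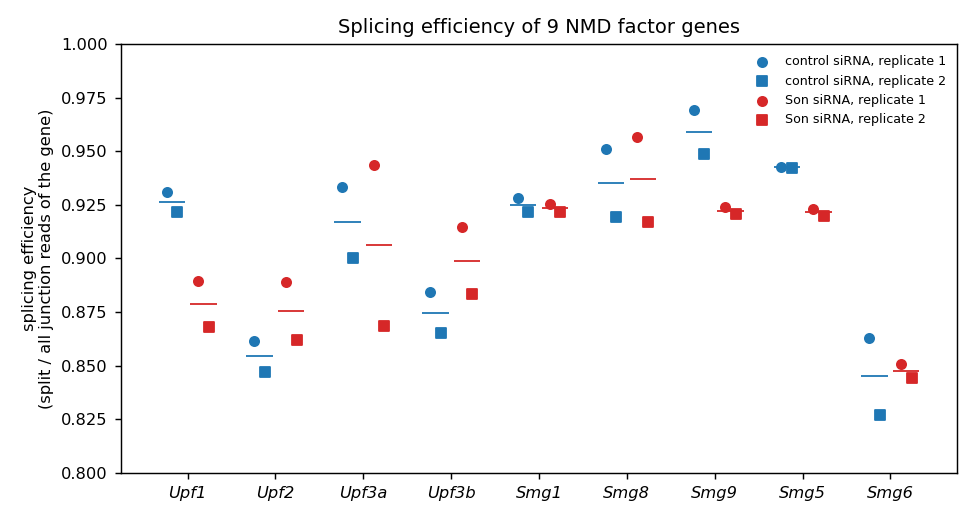
Splicing efficiency (split reads over all junction reads of the gene, y axis from 0.8) of each NMD factor gene in the 4 total RNA libraries; points are libraries and short lines are group means. Both Son siRNA points of Upf1, Smg9 and Smg5 lie below both control points.

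Lower values were found at most introns of Upf1. Of its 23 introns, 22 had a lower mean efficiency after Son siRNA, and in 18 both knockdown libraries lay below both controls. No Upf1 intron had them above. At introns 10 and 11 the groups overlapped, with log2 odds ratios of 0.064 and 0.076. Over all 148 member introns the groups did not overlap in 44 downward (29.7%) and 24 upward (16.2%), against 24.3% and 13.1% of all introns. The median log2 odds ratio was 0.68 for the Upf1 introns, 0.22 for the member introns and 0.12 for all introns. Introns of 1 gene share their libraries and RNA, and are not replicates of each other.

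Upf1 intron 6, before exon 7, was the single NMD factor intron that passed the test, where 1.71% of all introns were called lower and 0.0442% higher. It spans chr8:70792750-70793199 on the minus strand (GRCm39 coordinates as in the deposited tables) and is 450 nt long. Its efficiency was 0.813 and 0.833 in the controls and 0.564 and 0.618 after Son siRNA, a log2 odds ratio of 1.68 ± 0.40 (edgeR adjusted p = 0.0069). At its 5′ junction 5 of 229 and 6 of 166 reads were unsplit in the controls, and 38 of 149 and 19 of 130 after Son siRNA. The unsplit share there was thus 2.18% (95% Wilson interval 0.936 to 5.01) and 3.61% (1.67 to 7.66) in the controls against 25.5% (19.2 to 33.1) and 14.6% (9.56 to 21.7). At its 3′ junction the share was already 30.4% (25.7 to 35.7) and 26.6% (21.2 to 32.8) in the controls, and it was 54.8% (48.5 to 60.9) and 51.5% (45.1 to 57.9) after Son siRNA. These intervals cover counting error only, since reads without molecular identifiers are not independent molecules.

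With the 5′ junction alone the log2 odds ratio of intron 6 was 3.08 (adjusted p = 0.0155). The call was lost with the 3′ junction alone (adjusted p = 0.119), DESeq2 (0.0854), limma (0.333), without control replicate 1 (0.158) and without control replicate 2 (0.176), and over 12 alternatives its adjusted p ranged from 0.00032 to 0.333. With limma 0 of all 63309 introns were called, so the loss there is not particular to intron 6. Introns 4, 6, 7, 13 and 23 had the 5 largest log2 odds ratios of Upf1, from 1.26 to 1.68. With the 3′ junction alone 1 member intron was called lower, and it was not intron 6. No member intron was called higher with edgeR, 1 had an unadjusted p under 0.05 in that direction (Smg6 intron 2), and 0 were called with DESeq2 or limma. At an unadjusted p under 0.05, 16 member introns were lower, 12 of them in Upf1, where 8.11% of all introns were lower and 1.61% higher.

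**Figure D2:**
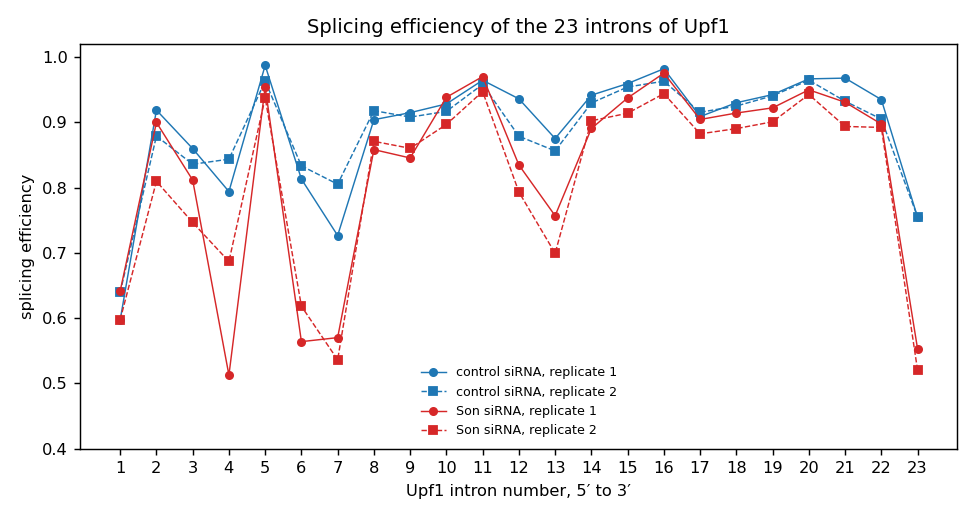
Splicing efficiency (y axis, from 0.4) of the 23 Upf1 introns in transcript order (x axis) in each of the 4 libraries. The gap between the groups is widest at introns 4, 6, 7, 13 and 23, and at intron 1 the libraries of both groups lie between 0.597 and 0.642.

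Intron 7, which follows exon 7 (chr8:70792492-70792631, minus strand), was at 0.727 and 0.805 in the controls and 0.570 and 0.536 after Son siRNA (log2 odds ratio 1.41, adjusted p = 0.0506 with edgeR). The deposited tables list it with the donor of the long exon 7, from which it is 140 nt long, while the donor of the short form makes it 173 nt. Split reads at this listed donor were few: 18 of the 277 split reads at the shared acceptor in control replicate 1, 27 of 250 in control replicate 2, and 21 of 190 and 12 of 158 after Son siRNA. The listed donor was thus used by 6.50% (95% Wilson interval 4.15 to 10.04) and 10.8% (7.53 to 15.3) of them in the controls and 11.1% (7.34 to 16.3) and 7.59% (4.40 to 12.8) after Son siRNA. The shares of the groups overlapped, so a change in the choice between the long and the short exon 7 was not detectable at this depth.

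At the acceptor of intron 7, which both forms share, the unsplit share was 10.9% (7.93 to 14.9) and 8.42% (5.68 to 12.3) in the controls and 24.0% (19.1 to 29.7) and 31.3% (25.7 to 37.6) after Son siRNA. Neither knockdown interval reached a control interval. At the listed donor unsplit reads prevailed in each library, 81.1% and 62.0% in the controls and 82.5% and 86.2% after Son siRNA. Its efficiency therefore mixes a junction that few spliced reads use with one that all use.

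The last intron of Upf1, intron 23 (140 nt), was at 0.754 and 0.755 in the controls and 0.553 and 0.520 after Son siRNA (edgeR adjusted p = 0.0847). Intron 13 (573 nt) was at 0.875 and 0.856 against 0.757 and 0.699 (edgeR adjusted p = 0.107). Intron 4 (369 nt) was at 0.794 and 0.844 against 0.513 and 0.687 (edgeR adjusted p = 0.149). In each of these the knockdown libraries were below the controls, but none passed the test. Intron 1, at 8412 nt the longest of the gene, had the lowest efficiency in the controls, and its groups overlapped: it was at 0.597 and 0.640 in the controls and 0.642 and 0.598 after Son siRNA (log2 odds ratio -0.02 ± 0.52). The 3′ end of Upf1 overlaps Cers1 and Gdf1 on the opposite strand in GENCODE M21, and whether the counting used strand is not given in the sources used here.

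Short introns are common in Upf1, and the length of an intron went with its change over the whole table. Upf1 introns had a median of 324 nt, against 811 nt over the 148 member introns and 1128 nt over all introns, and 7 of the 23 were 150 nt or shorter. Over all genes 7.86% of introns up to 150 nt were called lower, 3.02% of those above that and up to 500 nt and 0.342% of longer ones, and the median log2 odds ratio was 0.49, 0.26 and 0.05 in these classes. In Upf1 it was 0.90 over 7 introns, 0.63 over 10 and 0.73 over 6, and 5 of its 6 introns over 500 nt had a lower mean after Son siRNA, all but intron 1. In the other 8 genes it was 0.37 over 14 introns, 0.10 over 28 and 0.13 over 83. The 100 exon bases on each side of an intron had a median GC content of 56.5% in Upf1 and 59.1% in Smg9, against 37.5% in Upf3b, 44.7% in Smg1, 46.6% in Upf2 and 49.5 to 54.0% in the others.

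**Figure D3:**
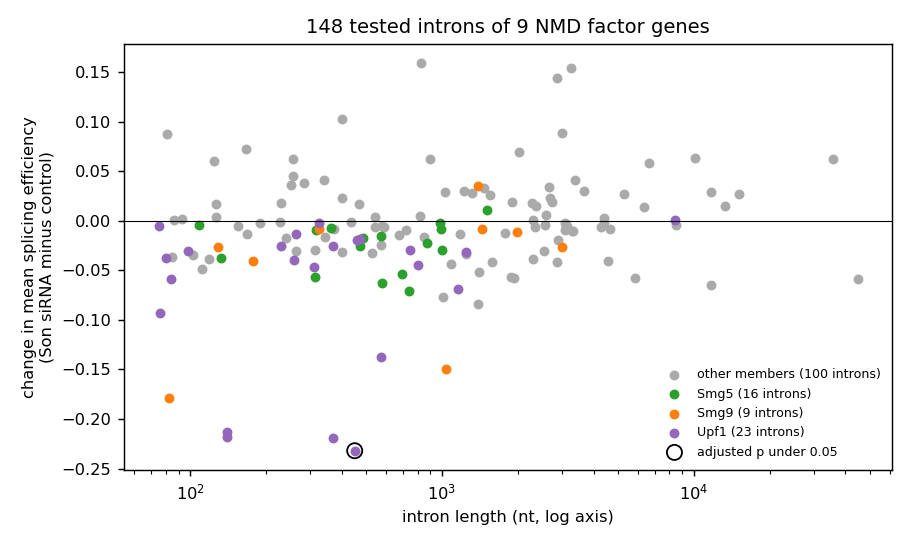
Change in mean splicing efficiency (Son siRNA minus control, y axis) against intron length (nt, log x axis) for the 148 tested introns of the 9 genes, coloured by gene; the ring marks Upf1 intron 6, the intron with an adjusted p under 0.05. Of the 23 Upf1 points 22 lie below 0, and the points of the other members in grey lie on both sides.

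Among the genes of the kinase complex, Smg9 had its largest difference downward at its shortest intron. Intron 4 of Smg9 (chr7:24105378-24105459, plus strand, 82 nt) was at 0.806 and 0.807 in the controls and 0.664 and 0.592 after Son siRNA. Its log2 odds ratio was 1.29 ± 0.64 and did not pass the test (edgeR adjusted p = 0.494), at 57 to 131 junction reads per library. Of the 9 tested Smg9 introns, 8 had a lower mean after Son siRNA. In 2 the groups did not overlap downward, where this held for 24.3% of all introns. Intron 13 of Smg9, with as few as 34 reads in a library, was uneven between the knockdown replicates, at 1.000 and 0.863 against 0.588 and 0.976. Intron 5 was the one with a higher mean, at 0.930 and 0.946 in the controls and 0.975 and 0.972 after Son siRNA.

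Smg1 had 52 tested introns, 29 of them with a lower mean. In 12 the groups did not overlap downward and in 9 upward, where this held for 24.3% and 13.1% of all introns. Its largest difference downward was at intron 55 (1385 nt), with 0.842 and 0.830 against 0.758 and 0.747. Its largest difference upward was at intron 53 (167 nt), with 0.806 and 0.879 against 0.922 and 0.906. Neither passed the test. Intron 44 of Smg1, 124 nt long and the lowest in the controls among those with 50 or more reads in every library, was at 0.687 and 0.645 against 0.726 and 0.725, so both knockdown values of this short intron were above the controls. Smg8 has 3 introns, and they ranged from 0.822 to 0.974 in the controls. Its intron 3 was at 0.822 and 0.835 against 0.958 and 0.838, and intron 1 at 0.970 and 0.907 against 0.935 and 0.875.

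Of the effector genes, Smg5 had lower values at nearly each intron and Smg6 had lower and higher ones. In Smg5, 15 of 16 tested introns had a lower mean, 6 did not overlap downward and none upward. Over all introns 24.3% did not overlap downward and 13.1% upward. The largest difference downward in Smg5 was at intron 13 (chr3:88260446-88261182, 737 nt), with 0.927 and 0.960 in the controls and 0.880 and 0.865 after Son siRNA (log2 odds ratio 1.27, edgeR adjusted p = 0.195). Intron 17 (314 nt) was at 0.938 and 0.938 against 0.895 and 0.866 (edgeR adjusted p = 0.235). In Smg6, 3 of 14 tested introns did not overlap downward and 4 did not upward. Intron 2 of Smg6 (828 nt) was at 0.769 and 0.737 in the controls and 0.867 and 0.957 after Son siRNA (log2 odds ratio -1.66 ± 0.72, edgeR adjusted p = 0.359). Its log2 odds ratio was -2.80 without knockdown replicate 1 and -1.08 without knockdown replicate 2. Its intron 12 was on the other side, at 0.883 and 0.877 against 0.873 and 0.758. The 35632 nt intron 8 of Smg6 had the lowest efficiency there, 0.310 and 0.349 in the controls and 0.493 and 0.291 after Son siRNA.

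Upf2 had more introns with higher than with lower values after Son siRNA. Of its 20 tested introns, 7 did not overlap upward and 1 downward, where this held for 13.1% and 24.3% of all introns. None of the 20 passed the test. Intron 13 of Upf2 (894 nt) was at 0.828 and 0.750 in the controls and 0.851 in both knockdown libraries, and intron 14 (1873 nt) at 0.863 and 0.940 against 0.877 and 0.812. The 255 nt intron of another transcript model near its 3′ end was spliced in a minority of reads, at 0.198 and 0.130 in the controls and 0.242 and 0.210 after Son siRNA. Upf2 introns are long, with a median of 3472 nt and none of 150 nt or shorter. In Upf3a, 4 of 5 introns had a lower mean and 1 did not overlap. Its intron 8 was at 0.898 and 0.874 in the controls and 0.953 and 0.737 after Son siRNA, intron 7 at 0.898 and 0.826 against 0.929 and 0.777, and intron 3 at 0.961 and 0.922 against 0.946 and 0.943. The knockdown libraries of Upf3a thus stood on opposite sides of the controls at introns 7 and 8. Intron 9 of Upf3b was at 0.614 and 0.667 in the controls and 0.738 and 0.831 after Son siRNA, and its intron 4 at 0.685 and 0.678 against 0.634 and 0.653.

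In 8 of the 148 introns, split reads differed more than 2-fold between the junctions: Upf1 intron 7, and 7 introns that are not introns of the main transcript, 2 each in Upf2 and Smg5 and 1 each in Upf3b, Smg1 and Smg6. The Smg5 intron of 999 nt had 4 split reads at its 5′ and 585 at its 3′ junction over the 4 libraries, and its efficiency was 0.820 and 0.811 in the controls and 0.821 and 0.752 after Son siRNA. The Smg5 intron of 1514 nt had 2220 and 146, and was at 0.962 and 0.951 against 0.962 and 0.973.

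Spliced reads, counted at the 5′ junctions of all introns of a gene, measure its processed RNA. By this count Upf1 and Upf3a fell after Son siRNA and no NMD factor gene rose. Upf1 had 606 and 652 CPM in the controls and 493 and 498 CPM after Son siRNA, a log2 fold change of -0.34 ± 0.069 (SE, n = 2 per group, edgeR adjusted p = 0.00205), so that it fell by 21.2%. Upf3a had 36.0 and 38.5 CPM in the controls and 28.4 and 26.7 CPM after Son siRNA, and fell by 25.8%, or -0.43 ± 0.13 on the log2 scale (edgeR adjusted p = 0.0424). Of all genes 6.76% were called lower and 1.96% higher. With edgeR 0 members were called higher, 1 (Upf2) had an unadjusted p under 0.05 in that direction, and 0 were called higher with DESeq2. In bulk RNA, fewer cells with a transcript and less of it per cell cannot be told apart.

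The fall of Upf1 was seen along the gene: in 17 of its 23 introns split reads, as CPM, were below both controls in both knockdown libraries and in 0 above, where this held for 20.2% and 21.4% of all introns. Over its 23 introns unsplit reads were 89.4 and 110 in the controls and 123 and 152 after Son siRNA, as CPM of the library's split reads. Upf1 was the 1 member called lower in both splicing efficiency and spliced reads, as were 4.8% of the genes tested for both. All 5 introns of Upf3a had fewer split reads by the same measure, while its splicing efficiency overlapped between the groups. The call of Upf1 was lost when 1 best covered intron stood for each gene (adjusted p = 0.226) and without control replicate 2 (0.219), over a range of 5.7e-10 to 0.226 in 10 alternatives. That of Upf3a was lost in 6 of 10: with DESeq2 (adjusted p = 0.0938), library totals (0.0634), 3′ junctions (0.0567), the best covered intron (0.465) and without control replicate 1 (0.214) or 2 (0.445), over a range of 0.0085 to 0.465.

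The other 7 genes differed by less, and none passed the test. Upf2 had 115 and 114 CPM in the controls and 132 and 129 after Son siRNA (log2 fold change 0.19 ± 0.087, edgeR adjusted p = 0.223). Upf3b, the paralog of Upf3a, had 37.6 and 31.3 CPM against 38.6 and 43.7 (log2 fold change 0.25 ± 0.13, edgeR adjusted p = 0.319). The value of Upf3b was 0.39 without control replicate 1, 0.13 without control replicate 2 and 0.15 without knockdown replicate 2, and its difference from Upf3a was not tested. Smg9 had 50.2 and 55.8 CPM against 44.4 and 49.5 (log2 fold change -0.17 ± 0.12), Smg8 23.1 and 21.4 against 24.7 and 24.8, and Smg6 51.5 and 51.3 against 55.2 and 56.8. Smg1 had 517 and 512 CPM in the controls and 518 and 577 after Son siRNA (log2 fold change 0.09), and it was called higher without knockdown replicate 1 (0.16, adjusted p = 0.0105, over a range of 0.0105 to 0.943 in 10 alternatives). Smg5 had 344 and 362 CPM against 309 and 376 (log2 fold change -0.04), and was called lower without knockdown replicate 2 (-0.19, adjusted p = 0.0155, over a range of 0.0155 to 0.999 in 10 alternatives). Knockdown values were below both controls in 3 genes, above both in 5 and overlapping in Smg5, where 24.6% of all genes were below and 24.0% above. The median log2 fold change was 0.09 over the 9 genes and 0.01 over all genes.

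**Figure D4:**
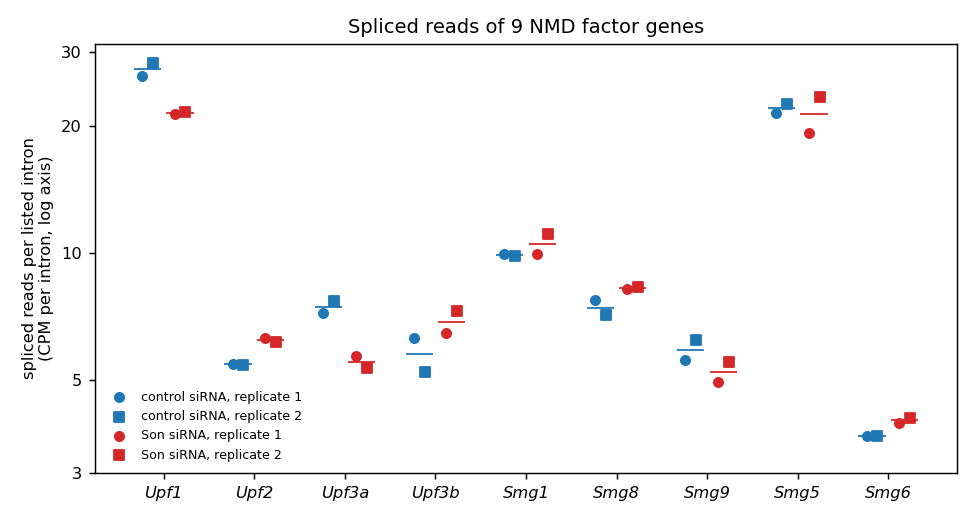
Spliced reads per listed intron (CPM per intron, log y axis) of each NMD factor gene; points are the 4 total RNA libraries and short lines are group means. Upf1, Upf3a and Smg9 have both Son siRNA points below both control points, and 5 genes have both above. Upf1 and Smg5 lie above the other genes in all libraries.

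Divided by the number of introns summed, so that genes with many introns are not counted more often, Upf1 and Smg5 had the most spliced reads among the 9 genes. Per intron, the control means were 27.3 ± 1.40 CPM (SD, n = 2) for Upf1, 22.1 ± 0.80 for Smg5 and 9.89 ± 0.078 for Smg1. They were followed by Upf3a (7.45 ± 0.35) and Smg8 (7.42 ± 0.42), whose values overlapped, then by Smg9 (5.89 ± 0.44), Upf3b (5.75 ± 0.75) and Upf2 (5.44 ± 0.028). Values of Upf3b overlapped those of Smg9 and of Upf2, while Smg9 lay above Upf2 in both controls, and Smg6 was lowest at 3.67 ± 0.012. After Son siRNA, Upf1 at 21.5 ± 0.17 and Smg5 at 21.4 ± 2.96 CPM per intron were no longer apart, and Upf3a at 5.51 ± 0.25 stood below Smg8 at 8.25 ± 0.039. These levels count listed introns only. They include the 8 introns above whose split reads differed more than 2-fold between the junctions. At their 5′ junctions these had 67 and 0 split reads in Upf2, 4 and 2220 in Smg5 and 0 in Smg6. The order of genes with close values, such as Smg9 and Upf2, can therefore depend on which introns are counted.

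The Nanopore cDNA reads gave 1 library per group, with 3080426 reads in the control and 1874851 after Son siRNA, so the differences have no replicate check and no test. The labels name the same total RNA sample as the starting material of both, and how these libraries relate to the total RNA replicates is not clear from them. Son had 217 reads in the control and 37 after Son siRNA, a log2 ratio of CPM of -1.82 (95% exact conditional interval -2.38 to -1.33, counting error only, as for all intervals here). The 9 genes together had 663 and 361 reads, a log2 ratio of -0.16 (-0.35 to 0.03).

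Smg5 was the member whose long reads differed beyond counting error. It had 183 reads (59.4 CPM) in the control and 70 (37.3 CPM) after Son siRNA, a log2 ratio of -0.66 (-1.09 to -0.27). In the total RNA its spliced reads differed by -0.04 on the log2 scale, a value outside that interval. Upf1 had 68 reads (22.1 CPM) and 29 (15.5 CPM), a log2 ratio of -0.50 (-1.19 to 0.13), an interval that holds the -0.34 of the total RNA. Upf3a had 73 and 52 reads, a log2 ratio of 0.23 (-0.31 to 0.76), and the -0.43 of the total RNA lies below that interval. Upf3b had 108 and 51 reads, a log2 ratio of -0.36 (-0.88 to 0.13), and the 0.25 of the total RNA lies above that interval. The estimates from long and short reads thus stood on opposite sides of 0 for both Upf3 genes, but both long-read intervals held 0. These comparisons leave out the error of the total RNA values. It was ± 0.085 (SE) for Smg5 and ± 0.13 for each Upf3 gene. Whether the long and the short reads differed was not tested. None of the 9 genes was at least 2-fold lower or higher, where 4.16% and 2.21% of the 9613 genes with 20 or more long reads were.

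For the other genes each interval held 0. Upf2 had 95 and 69 reads (log2 ratio 0.26, -0.21 to 0.72). Smg1 had 17 and 18 (0.80, -0.24 to 1.84), Smg8 38 and 20 (-0.19, -1.07 to 0.61) and Smg9 23 and 19 (0.45, -0.52 to 1.38). Smg6 had 58 and 33 (-0.09, -0.76 to 0.54). A long read is counted once whatever the number of introns, and in the control the order by CPM was Smg5 (59.4), Upf3b (35.1), Upf2 (30.8), Upf3a (23.7), Upf1 (22.1), Smg6 (18.8), Smg8 (12.3), Smg9 (7.47) and Smg1 (5.52). Upf1, highest by spliced reads per intron, thus came after 4 other members by long reads.

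**Figure D5:**
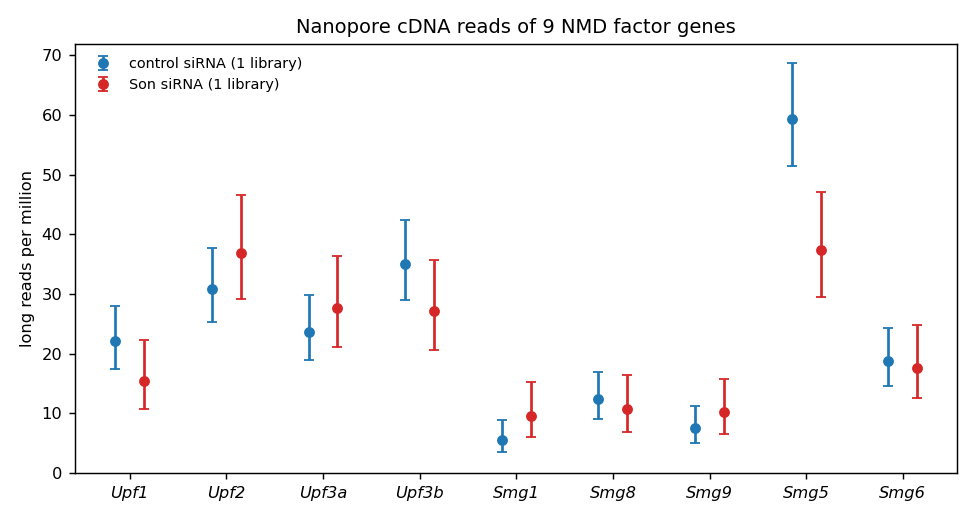
Long reads (CPM, y axis) of each NMD factor gene in the control and the Son siRNA library (1 library each), with 95% Wilson intervals for counting error. The intervals of the 2 libraries are apart for Smg5 and overlap for the other genes.

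By transcript model, the reads of Upf1 were shared between its 2 forms, 34 for Upf1-201 and 34 for Upf1-202 in the control and 13 and 16 after Son siRNA. By model, Upf1-201 thus had a larger share than the 6.50 to 11.1% of split reads that used the long exon 7 donor in the total RNA. The models are 4618 and 4518 bases long, so they differ by more than the 33 bases of exon 7. Whether the reads given to each model covered exon 7 was not tested. Other members were mostly read as 1 coding model, given here with the log2 ratio of CPM in brackets. Smg5-201 had 143 and 54 reads (-0.68, -1.17 to -0.23). Upf3b-201 had 95 and 47 (-0.29), Upf2-201 88 and 59 (0.14), Upf3a-201 68 and 45 (0.13) and Smg6-201 43 and 23 (-0.17). Smg8-201 had 36 and 18 (-0.26), Smg9-201 21 and 14 (0.15) and Smg1-201 12 and 10 (0.46). Apart from that of Smg5-201, each interval of these ratios held 0. Of the 45 annotated models of the 9 genes, 36 had reads.

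Models annotated as retained intron held 51 of the 663 member reads in the control, 7.69% (95% Wilson interval 5.90 to 9.97), and 22 of the 361 after Son siRNA, 6.09% (4.06 to 9.05). Over all genes the shares were 6.24% and 6.64%. Of these reads 38 and 10 were of Smg5, out of its 183 in the control and 70 after Son siRNA. Its models Smg5-203, Smg5-204 and Smg5-206 had 15, 15 and 5 reads in the control and 6, 2 and 2 after Son siRNA. The retained-intron models Upf3a-203 and Upf3a-202 had 3 and 2 reads against 3 and 4. Upf1 has no model of this kind, so reads that keep its introns 6 or 7 could not be counted this way.

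Models annotated as targets of NMD itself held 14 member reads in the control, 2.11% (1.26 to 3.51), and 17 after Son siRNA, 4.71% (2.96 to 7.41), against 1.42% and 1.48% over all genes. Each of the 2 member shares lay outside the counting interval of the other, although the intervals overlapped, and with 1 library per group the difference has no replicate check. Most were Smg6-202, with 13 of the 58 Smg6 reads in the control, 22.4% (13.6 to 34.7), and 10 of 33 after Son siRNA, 30.3% (17.4 to 47.3). Smg1-204 had 1 read in the control and 4 after Son siRNA, and Smg5-202 had 0 and 3. The 13 and 10 reads of Smg6-202 came from libraries of unequal depth. Scaled to depth, Smg6-202 had 4.22 CPM in the control and 5.33 CPM after Son siRNA, a log2 ratio of 0.35 (-1.01 to 1.64).

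Of 22 other genes of the pathway, 21 were listed and tested. They were regulators and partners, the exon junction complex, termination and cap or poly(A) binding proteins, and decapping and decay enzymes. In spliced reads 1 fell and 0 rose, with edgeR as with DESeq2, where 6.76% of all genes were called lower and 1.96% higher. At an unadjusted p under 0.05 edgeR gave 2 lower and 1 higher. In splicing efficiency 1 was lower and 0 higher with edgeR and with DESeq2 and 0 with limma, where edgeR called 6.98% of all genes lower, and at an unadjusted p under 0.05 edgeR gave 2 lower and 0 higher. It was Ruvbl2 both times, an ATPase that with Ruvbl1 takes part in assembling the Smg1 kinase complex. Ruvbl2 had 593 and 598 CPM in the controls and 471 and 442 CPM after Son siRNA (log2 fold change -0.38, edgeR adjusted p = 0.000755), and its splicing efficiency was 0.965 and 0.952 against 0.926 and 0.909. Its long reads were 613 and 280, a log2 ratio of -0.41 (-0.62 to -0.21). The median log2 fold change of the 21 genes was 0.02.

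Of 17 genes with transcripts known to be degraded by NMD, 8 were tested in the total RNA, and none was called higher or lower in spliced reads or in splicing efficiency with edgeR or DESeq2. At an unadjusted p under 0.05 edgeR and DESeq2 gave 0, and limma gave 1 higher in splicing efficiency. Their median log2 fold change in spliced reads was 0.04. Atf3, a stress transcription factor, had 10.9 and 13.2 CPM in the controls and 9.69 and 14.5 after Son siRNA, and Ddit3, another one, 2.46 and 2.80 against 3.39 and 3.85 (log2 fold change 0.46, edgeR adjusted p = 0.442). Chac1 had the largest log2 fold change of the 8, at -0.76 (edgeR adjusted p = 0.312), and the long reads of Ddit3 stood the other way, with 70 and 31 reads (log2 ratio -0.45, -1.12 to 0.17). In the long reads 12 of the 17 had 20 or more reads, with a median log2 ratio of -0.07. Atf4 had 478 and 334 reads (log2 ratio 0.20, -0.01 to 0.40), and Gadd45a 46 and 26 (-0.095, -0.86 to 0.62). For the other 5 of the 17 (Gas5, Snhg1, Snhg12, Snhg5 and Zfas1) no values were used here.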

How the data were processed

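Per the labels, the total RNA tables hold SPLICE-q values, which are the authors' read counts for either junction of an intron, split and unsplit, and their score, the fraction that is split. The score was recomputed from the deposited counts and did not differ from the deposited one. The deposited long-read tables hold counts of reads per transcript. The submitters' processing notes name GRCm39, minimap2 and SAMtools with no roles, and an aligner for the total RNA is not given in the sources used here.

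Introns listed in all 4 libraries, with at least 10 split and 10 unsplit reads in all, were tested with edgeR 4.0.16 (quasi-likelihood, 1 term per library, unsplit by knockdown interaction). Those listed in more than 1 gene were left out of the member introns and of the sums per gene. Spliced reads per gene were tested with edgeR after TMM scaling and its filter on low counts. Adjusted p-values (Benjamini-Hochberg, under 0.05 is a call) cover all introns or genes tested. DESeq2 1.42.0 and limma 3.58.1 were alternatives. The test code was tested on simulated data. Long-read log2 ratios use a pseudocount of 0.5 and exact intervals from scipy 1.17.1. All but 101 of 12134 gene IDs and 98.6% of transcript IDs were matched to names.

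The 9 genes and all lists were chosen with earlier results of these data known. Named introns are those called and, per gene, the largest fall, the largest rise and the lowest in the controls with 50 or more reads in every library; Smg5 intron 17, Smg9 intron 13 and Upf1 introns 4, 7, 13 and 23 were chosen after their values were seen. Intron numbers and exon sequences come from GENCODE M21 (GRCm38), matched by transcript and intron length (99.6% of 83936 introns equal), and coordinates from the deposited tables.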

Additional observations from a re-analysis of the deposited data

How the results depend on the processing

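Member introns called lower were 1 in the values above, 0 with DESeq2, 0 with limma, 3 with split and unsplit reads scaled separately, 2 with 50 or more reads in every library, and 0 to 2 with each library left out. Member genes called lower in splicing efficiency were 2, but 1 with the 5′ junctions alone, 1 with DESeq2, 0 with limma and 0 to 2 with each library left out. Members called lower in spliced reads were 2, but 1 with DESeq2, 1 with library totals, 1 with 3′ junctions, 0 with the best covered intron and 0 to 3 with each library left out; members called higher were 0 to 1 with each library left out. Where 1 library of a group was left out, the lone library was assumed to vary like the other group.

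The replicate numbers do not pair the libraries by the labels, and the replicate deviations of the groups correlated at 0.0085 over introns and 0.011 over genes. This correlation cannot register a shift common to all introns or genes, such as the lower splicing efficiency of replicate 2 in both groups. It therefore does not decide whether a replicate block is needed. With the replicate number as a block, 5 member introns were called lower. Under the same block Smg5 passed in splicing efficiency (log2 odds ratio 0.48, edgeR adjusted p = 0.00054), and the log2 odds ratio of Upf3a intron 3 turned to 0.0084. Over 11 alternatives the adjusted p of Smg5 in splicing efficiency ranged from 0.00054 to 0.870.

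No value with a call changed sign. Others did, and the cause was not tested. In gene splicing efficiency (log2 odds ratio) these were Upf3a (-0.0343) and Smg1 (-0.13) with separate scaling, Smg8 (0.82) and Smg6 (0.0011) with 3′ junctions alone. With each library left out Upf3a ranged from -0.58 to 0.77, Smg1 from -0.0363 to 0.10, Smg8 from -0.57 to 0.43 and Smg6 from -0.22 to 0.18. In spliced reads Smg1 turned to -0.15 with the best covered intron, and Smg5 ranged from -0.19 to 0.0941 with each library left out. Of the introns, with 3′ junctions alone Upf1 intron 1 turned to 0.0822, Upf3a intron 3 to 0.21, Upf3b intron 4 to -0.29 and Smg8 intron 3 to 0.66. With 5′ junctions alone Upf3a intron 7 turned to -0.27 and the Smg5 intron of 1514 nt to 0.93. With limma Upf3a introns 3 and 7 turned to 0.0131 and -0.0409, and intron 7 to -0.13 with separate scaling. With each library left out, Upf1 intron 1 ranged from -0.15 to 0.13, Upf3a introns 3, 7 and 8 from -0.51 to 0.52, from -1.02 to 0.87 and from -1.34 to 1.48, Smg8 intron 1 from -0.0211 to 1.69, the Smg5 intron of 999 nt from -0.0459 to 0.55 and Smg6 intron 8 from -0.98 to 0.26.

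Over all features, introns called lower were 1084, but 231 with the 5′ junction alone, 319 with the 3′ junction alone, 275 with DESeq2, 0 with limma and 163 to 1394 with each library left out. Genes called lower in splicing efficiency were 654, but 0 with limma and 176 to 695 with each library left out. Genes called lower in spliced reads were 640, but 253 with the best covered intron and 344 to 1287 with each library left out. Depth limits the members with few reads: they had 17 to 183 long reads in the control, and Smg9 intron 4 had 57 to 131 junction reads per library.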
